A study of Mus musculus with 6 samples.

Results

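The regions described here are stretches of the mouse autosomes in which YAP1 peaks were listed for both SGf libraries and for neither SGm library. They number 2691 of 24238 autosomal regions narrower than 1000 bp. On chromosomes 1 to 19, peaks from any of the 4 lists were joined into 1 merged region wherever they shared at least 1 bp, and a region counts as held by each library that contributed a peak. The regions were therefore chosen by the measured presence or absence of peaks in these same lists, so their number, heights and widths are given as a description with no test. They are called SGf-alone regions in the following text. They are compared with the 5784 regions, chosen by the same limits, that both SGf libraries and at least 1 SGm library held.

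All libraries came from tumours of mice of the genotype fSMO-M2;hGFAPcre, labelled SG, and no animal without the transgene was included. SmoM2 is an active form of Smoothened, the membrane protein that turns on Hedgehog signalling, and the Cre recombinase is driven by the human GFAP promoter, which is active in neural progenitors. The tissue label MB was read as medulloblastoma, the cerebellar tumour that mice of this kind are known to develop. The series title asks about sex differences in the function of YAP1, here in tumours of females (SGf) and males (SGm). Flash-frozen tumours were sent to a service company for chromatin immunoprecipitation with an anti-YAP1 antibody. There were 2 SGf and 2 SGm libraries, numbered Rep.1 and Rep.2, and 2 pooled inputs that were not analysed here. The ages of the animals are not stated, and no label says whether the replicates were separate animals. A Sex tag goes against the titles for SGm Rep.1, tagged Female, and for SGf Rep.2, tagged Male, so SGf and SGm are used here as the titles give them. Peak lists hold no expression values, and the tissue label was not checked against marker genes.

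YAP1 is a co-activator of transcription that the Hippo pathway, a kinase cascade restraining organ growth, holds in check. It has no DNA-binding domain of its own and is known to reach chromatin through partners such as the TEAD factors, often at enhancers. In granule neuron progenitors of the cerebellum, the cells from which Hedgehog-driven medulloblastoma grows, YAP1 is known as a target of Hedgehog signalling and a driver of proliferation. In a ChIP-seq experiment a peak is a stretch with more sequenced fragments than a background, and its summit is the position where the pile of fragments is highest.

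The deposited lists held 16145 peaks for SGf Rep.1, 16769 for SGf Rep.2, 4155 for SGm Rep.1 and 9470 for SGm Rep.2. The number of reads behind each list is unknown. A longer list has more chances to hold a region. With each list cut to the length of the shortest by p-value, 327 regions were SGf-alone. No count for the SGm pair at that setting is given here. The share of the difference between SGf and SGm that goes with list length was not tested. The lowest −log10 q in each list was between 1.3 and 1.35, so every list stopped near q = 0.05, and a region absent from a list may still have had signal under that threshold.

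SGf-alone regions made up 11.1% of all autosomal regions below 1000 bp and 31.8% of the 8475 such regions that both SGf libraries held. The mirror image, regions held by both SGm libraries and neither SGf library, numbered 23, or 0.0949% of all. These shares restate the rule that chose the regions, and nothing is read from them. Single-library regions were the most numerous, with 5554 in SGf Rep.1 alone and 5545 in SGf Rep.2 alone. Among regions that 2 libraries alone held, the SGf pair was followed by SGf Rep.2 with SGm Rep.2 at 1602, SGf Rep.1 with SGm Rep.1 at 492, SGf Rep.1 with SGm Rep.2 at 461, and SGf Rep.2 with SGm Rep.1 at 74. For each SGf library, the pair with the SGm library of its own replicate number was the larger. Those 2 pairs are also the groups that the Sex tag would give, Female for the Rep.1 pair and Male for the Rep.2 pair. Whether libraries of 1 number shared an input as control is not stated, and its part in these overlaps was not tested. Of the 5784 comparison regions, 3589 were shared with SGm Rep.2 alone, 498 with SGm Rep.1 alone and 1697 with both.

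**Figure D1:**
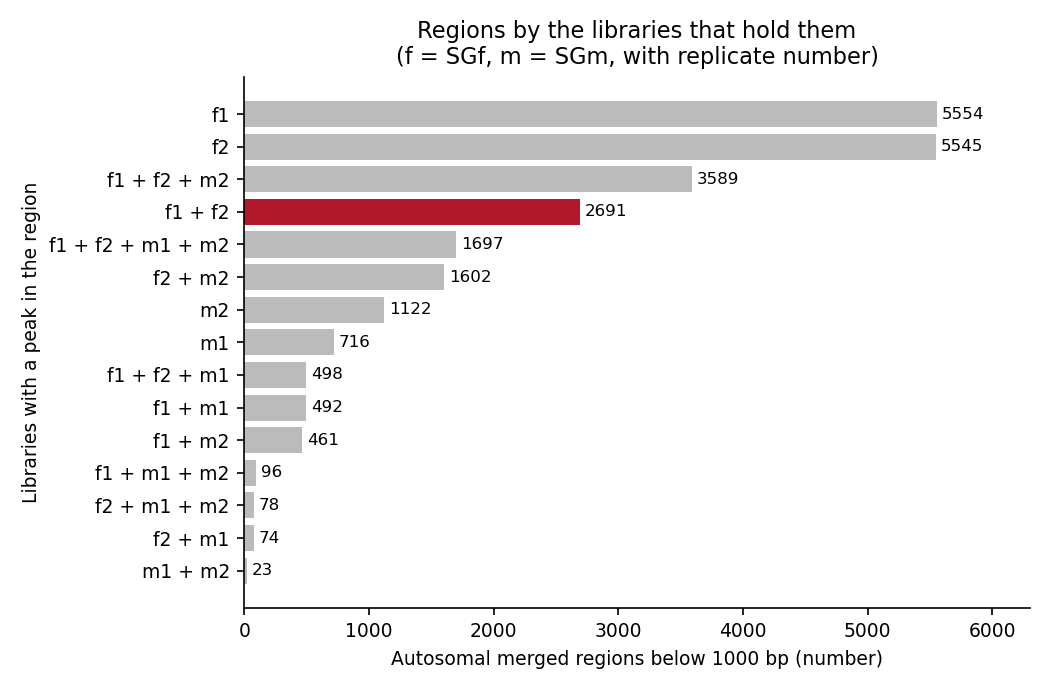
Number of autosomal merged regions below 1000 bp (horizontal axis) for each combination of libraries that held them (vertical axis; f is SGf, m is SGm, with the replicate number). The SGf pair alone, in red, held 2691 regions, against 23 for the SGm pair alone.

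In most SGf-alone regions, each SGf library contributed a single peak. Of the 2691 regions, 2635 (97.9%) were made of 2 peaks and 56 (2.08%) of 3. They took up 17.2% of the autosomal peaks of SGf Rep.1 and 16.5% of those of SGf Rep.2.

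The peaks of SGf-alone regions lay near the middle of each SGf list by strength. The authors' fold enrichment, a ratio of the peak over a background that is not described, had a median of 3.55 in SGf Rep.1, with the central 50% of regions between 3.04 and 4.19. In SGf Rep.2 the median was 3.52, and the central 50% lay between 2.98 and 4.17. The whole range was 1.91 to 8.13 in SGf Rep.1 and 1.90 to 8.83 in SGf Rep.2. The median −log10 q was 5.35 in SGf Rep.1 and 5.45 in SGf Rep.2, against 7.49 and 8.49 for the comparison regions. By p-value, the median SGf-alone peak stood at 50.8% of the way down the SGf Rep.1 list and at 55.8% of the SGf Rep.2 list. The median comparison peak stood at 29.5% and 28.0%. The strongest peaks of the SGf lists were thus seldom in SGf-alone regions. Only 3 SGf-alone regions (0.111%) ranked among the first 1000 peaks by p-value in both SGf lists, against 316 comparison regions (5.46%). A −log10 q of at least 10 in both lists was reached by 53 SGf-alone regions (1.97%) and by 1036 comparison regions (17.9%).

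The heights in the 2 SGf libraries were only loosely related from region to region. Across the 2691 SGf-alone regions, Pearson's r between the fold enrichments was 0.13 and Spearman's rho was 0.12. Across the 5784 comparison regions r was 0.34 and rho 0.19. For −log10 p, r was 0.18 and rho 0.15 in SGf-alone regions, against 0.54 and 0.34 in comparison regions. Folds of SGf-alone regions reached at most 8.13 and 8.83 in the SGf lists, against 26.7 and 27.2 in comparison regions. The part of this narrower range in the lower correlations was not tested. These correlations run over regions that share 2 libraries, and regions are not independent replicates. The rank of a region differed between the SGf lists by a median of 24.3 percentage points, against 19.5 for comparison regions.

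**Figure D2:**
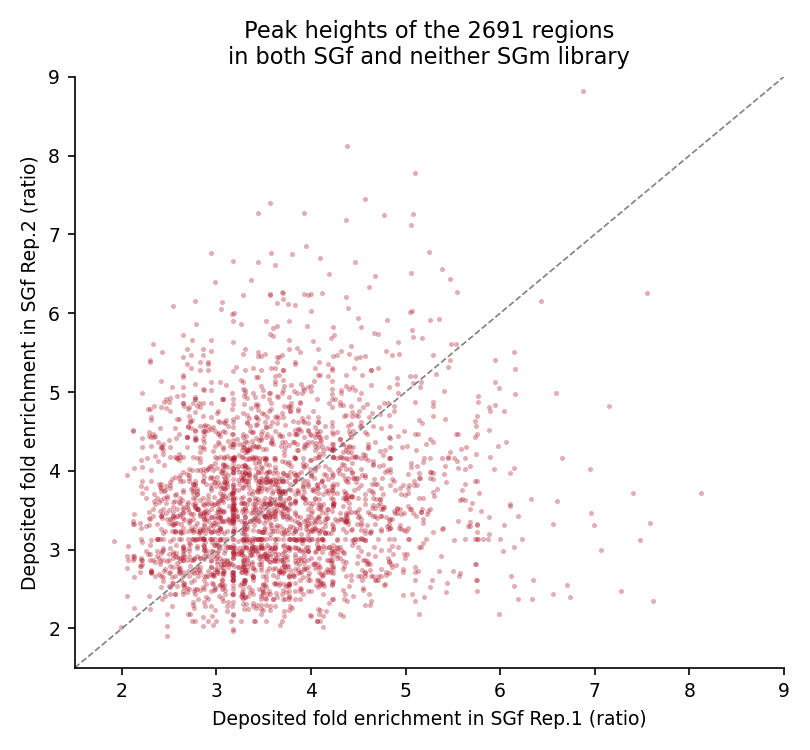
Deposited fold enrichment of each of the 2691 SGf-alone regions in SGf Rep.1 (horizontal axis) and SGf Rep.2 (vertical axis), 1 point a region, with a dashed line at equal values. The points form a broad cloud around the medians of 3.55 and 3.52, with r = 0.13.

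The strongest SGf-alone regions, ordered by the worse of their p-value ranks in the SGf lists, are extremes and not typical cases (mm9 positions). The 20 strongest had median folds of 5.06 in SGf Rep.1 and 5.06 in SGf Rep.2, against 3.55 and 3.52 over all 2691. The first, at chr9:85750103-85750420, was 318 bp wide. It had a fold enrichment of 7.56 in SGf Rep.1, where it ranked 266 by p-value, and 6.26 in SGf Rep.2, where it ranked 552. Its SGf summits were 11 bp apart, and the nearest SGm peak was 106519 bp away. The second, at chr6:87571358-87571657, had folds of 5.29 and 4.88, with summits 29 bp apart and the nearest SGm peak 30320 bp away. The next, at chr14:65568471-65569019, had folds of 5.17 and 5.68 and summits 20 bp apart. The highest fold of any SGf-alone region, 8.83 in SGf Rep.2, was at chr9:24087624-24087921, where SGf Rep.1 had 6.88. Not every strong region was far from SGm signal. At chr4:81372618-81373069, with folds of 4.59 and 4.84, an SGm peak lay 398 bp away. The 20 strongest regions were spread over 13 chromosomes, and their summits were 5 to 230 bp apart with a median of 40.5 bp. Each lay at least 65434 bp from the nearest region held by all 4 libraries.

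SGf-alone regions were narrower than regions that an SGm library also held. Their median width was 386 bp (95% exact interval of the median 381 to 394), and the central 50% lay between 313 and 491 bp. The merged comparison regions had a median of 528.5 bp (523 to 535). Those are wider in part by construction, since the SGm peaks are merged into them. Measured on SGf peaks alone, their median was 502 bp (496 to 510, n = 5717). The single peak of SGf Rep.1 was 283 bp at the median in SGf-alone regions and 375 bp in comparison regions. In SGf Rep.2 the medians were 292 and 409 bp. The intervals cover counting error over regions and not the spread between tumours.

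Peaks at the narrowest width of their list were about as frequent in SGf-alone regions as in the whole lists, or less so, and were scarce in comparison regions. In SGf Rep.1, whose narrowest peaks were 187 bp, 104 SGf-alone regions (3.86%) had a peak of that width, against 63 comparison regions (1.09%) and 4.94% of all peaks of the list. In SGf Rep.2, at 196 bp, the numbers were 119 (4.42%) and 70 (1.21%), against 4.38% of all peaks.

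Stronger peaks were wider in these lists, so the widths were also set side by side within 5 equal bins by the worse p-value rank over the SGf lists. Measured on SGf peaks alone, which was added to the bins after seeing the data, the median width of SGf-alone regions went from 413 bp in the strongest bin to 373 bp in the weakest, and that of comparison regions from 555 to 466 bp. SGf-alone regions were narrower in 5 of 5 bins, with intervals that did not overlap. The bins did not make the strengths equal, because in SGf Rep.2 the SGf-alone peaks had the lower −log10 p in 5 of 5 bins. Each SGf list was therefore also split into 5 bins by its own p-values, a split added after seeing the data. In SGf Rep.1, the median peak widths in the strongest bin were 333 bp (316 to 355) for SGf-alone and 458 bp (444 to 471) for comparison regions. In the weakest bin they were 265 bp (257 to 272) and 305 bp (294 to 316). In SGf Rep.2 they were 344 and 476.5 bp in the strongest bin and 263.5 and 316 bp in the weakest. The SGf-alone peaks were narrower in 10 of these 10 bins with intervals apart, while their median fold enrichment was the higher in 9 of 10. These bins did not make the p-values fully equal either. The median −log10 p of SGf-alone peaks was the lower in 9 of 10 bins and equal in 1, with the widest gaps in the strongest bins, at 16.8 against 18.97 in SGf Rep.1 and 18.4 against 20.4 in SGf Rep.2. In the third bin of SGf Rep.1, where both medians were 10.1, the widths were 285 bp (271 to 297) and 354 bp (345 to 365).

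**Figure D3:**
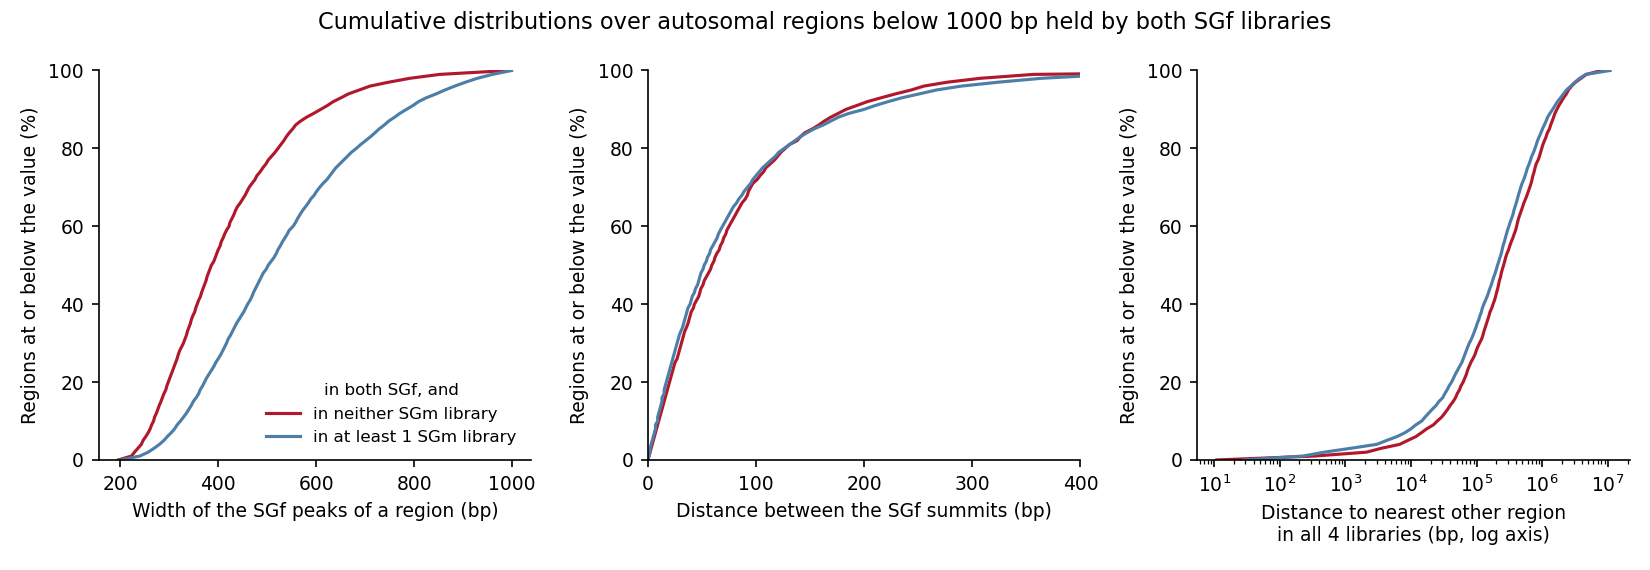
Cumulative share of regions (vertical axes, percent) by width of the SGf peaks in bp, distance between SGf summits in bp, and distance in bp on a log axis to the nearest other region held by all 4 libraries. Red is the SGf-alone regions and blue the comparison regions; the width curves are far apart (medians 386 and 502 bp), and the summit curves nearly coincide (59 and 52 bp).

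Being narrow was not particular to the SGf pair. For each of the 6 pairs of libraries, regions that the pair alone held were narrower than regions of the same pair that another list also held, with intervals apart in 6 of 6. The medians were 386 against 503 bp for the SGf pair and 307 against 432 bp for the SGm pair. For SGf Rep.2 with SGm Rep.2, a pair that crosses the groups, they were 367 against 468 bp. For SGf Rep.1 with SGm Rep.1 they were 343 against 476 bp.

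The width limit of the rule removed few regions of this kind. Of the SGf-alone regions, 2057 were narrower than 500 bp and 15 reached 900 bp. At or above 1000 bp, 13 regions were in both SGf and neither SGm library, against 440 in both SGf and at least 1 SGm library. The widest region inside the limit was 993 bp, at chr6:82686627-82687619, with folds of 4.34 and 4.83. The narrowest outside it was 1006 bp, at chr9:45416266-45417271, with folds of 4.76 and 3.48. Among the widest, chr17:27692814-27693785 had its SGf summits 684 bp apart, the widest gap of any SGf-alone region.

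The SGf peaks of an SGf-alone region overlapped in every case, which limits how far apart their summits can lie. The median distance between SGf summits was 59 bp (56 to 62), with the central 50% between 25 and 109 bp. In comparison regions it was 52 bp (51 to 54). Summits were within 50 bp of each other in 1209 SGf-alone regions (44.9%, exact Clopper-Pearson interval 43.0 to 46.8) and in 2816 comparison regions (48.7%, 47.4 to 50). That small difference did not hold its direction by strength. SGf-alone regions had the lower median distance in 4 of 5 strength bins, and the intervals were apart in 0 of 5. In the strongest bin the medians were 41 and 37.5 bp, and in the weakest they were 70 and 75 bp. In both classes the summits were farther apart where peaks were weaker. The signed shift from SGf Rep.1 to SGf Rep.2 had a median of −1 bp (−5 to 3) in SGf-alone regions, so neither library's summits lay to 1 side. Among regions that a pair of libraries alone held, the SGf pair was not set apart by its summit distance. The median was 54 bp (51 to 58) for SGf Rep.2 with SGm Rep.2 and 56 bp (49 to 63) for SGf Rep.1 with SGm Rep.2. For SGf Rep.2 with SGm Rep.1 it was 62 bp (40 to 102), and for SGf Rep.1 with SGm Rep.1 63.5 bp (55 to 72). The SGm pair had 73 bp (43 to 111).

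Relative to width, SGf-alone summits were farther apart, but this ratio divides by a width that was itself narrower in SGf-alone regions. Their distance had a median of 15.2% of the width of the SGf peaks, against 10.6% in comparison regions (n = 5717). The median ratio was the higher in 5 of 5 strength bins, with intervals apart in 1. In bp, the median distance of SGf-alone summits was the lower in 4 of 5 bins. The ratio is thus no separate sign of poorer summit agreement. The bases that both SGf peaks covered made up a median of 60.4% of their union, against 64.9% in comparison regions. In 2000 SGf-alone regions (74.3%) the SGf peaks overlapped by at least 50% of both, against 4549 comparison regions (78.6%). Neither difference held its direction by strength. SGf-alone regions had the higher median of shared bases in 3 of 5 bins, for example 63.2% against 61.8% in the third, and the higher share with that overlap in 4 of 5.

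**Figure D4:**
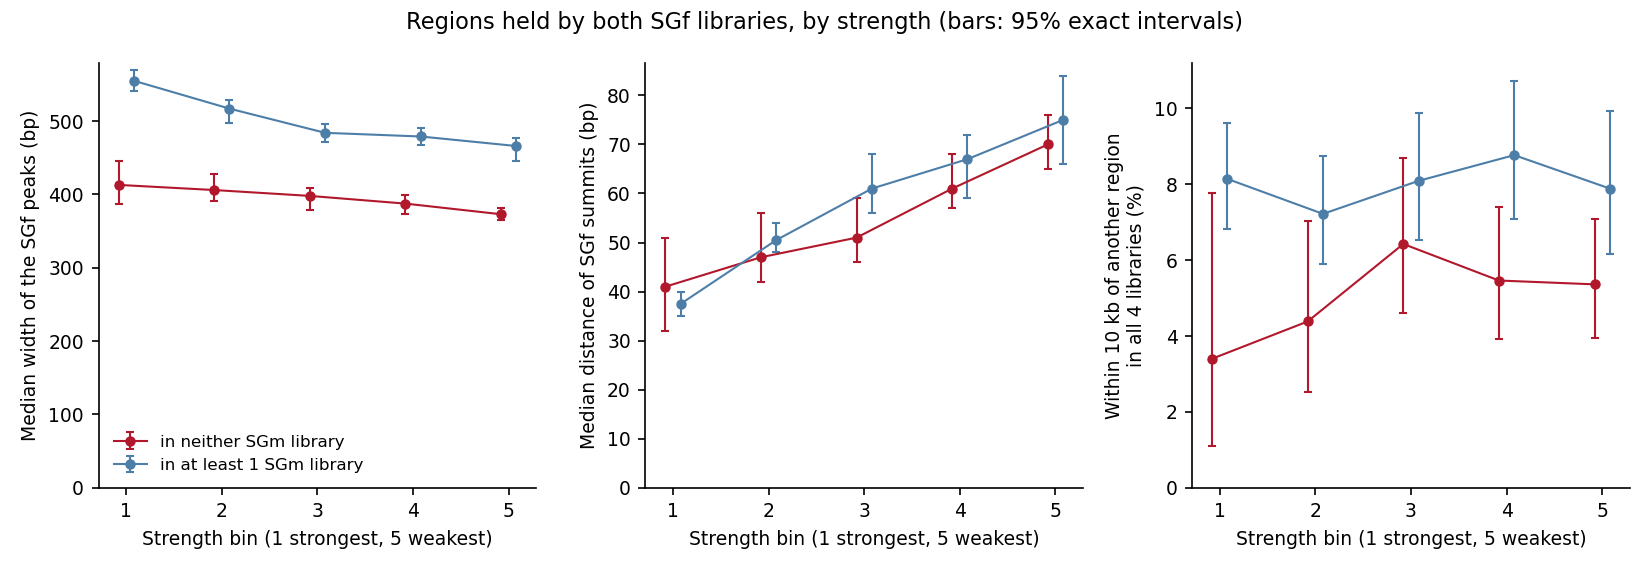
Median width of the SGf peaks (bp), median distance of the SGf summits (bp) and share of regions within 10 kb of another region held by all 4 libraries (percent), for 5 equal bins from strongest to weakest (horizontal axes), with 95% exact intervals. Red SGf-alone widths stay below blue comparison widths in 5 of 5 bins, while the summit intervals overlap in each bin.

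SGf-alone regions lay somewhat farther from regions held by all 4 libraries than comparison regions did. There were 1980 autosomal regions of any width in all 4 libraries, and a comparison region that was one of them was measured to the nearest other. The median distance was 257789 bp (238778 to 276161) for SGf-alone and 208302 bp (198821 to 221131) for comparison regions. These distances moved with the lists used. Without SGm Rep.1, when a region in the other 3 lists counted, the medians were 76813 and 57437 bp, and at a −log10 q of at least 5 they were 867584 and 691622 bp, with SGf-alone regions the farther in both settings. Another such region lay within 10 kb of 145 SGf-alone regions (5.39%, 4.57 to 6.31) and 462 comparison regions (7.99%, 7.30 to 8.72). Within 100 kb the shares were 28.1% and 34.5%. By strength, the 10 kb share of SGf-alone regions was the lower in 5 of 5 bins, from 3.40% against 8.14% in the strongest to 5.36% against 7.89% in the weakest, but the intervals overlapped in each bin. Split by which SGm library shared them, comparison regions had median distances whose intervals overlapped. Their median distance was 241646 bp (193126 to 277008) for those shared with SGm Rep.1 alone. It was 207361 bp (193254 to 223236) with SGm Rep.2 alone and 202379 bp (180868 to 224601) with both. The interval for SGm Rep.1 alone held the SGf-alone median of 257789 bp. The 10 kb share of those regions was 6.43% (4.44 to 8.95), an interval that overlapped that of SGf-alone regions.

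Other pairs of libraries had 10 kb shares that were level with or above that of the SGf pair. The share was 5.99% (4.88 to 7.27) for SGf Rep.2 with SGm Rep.2, 8.89% (6.46 to 11.9) for SGf Rep.1 with SGm Rep.2 and 12% (9.26 to 15.2) for SGf Rep.1 with SGm Rep.1. For SGf Rep.2 with SGm Rep.1 it was 14.9% (7.66 to 25). For the SGm pair it was 17.4%, with an interval of 4.95 to 38.8 from 23 regions.

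**Figure D5:**
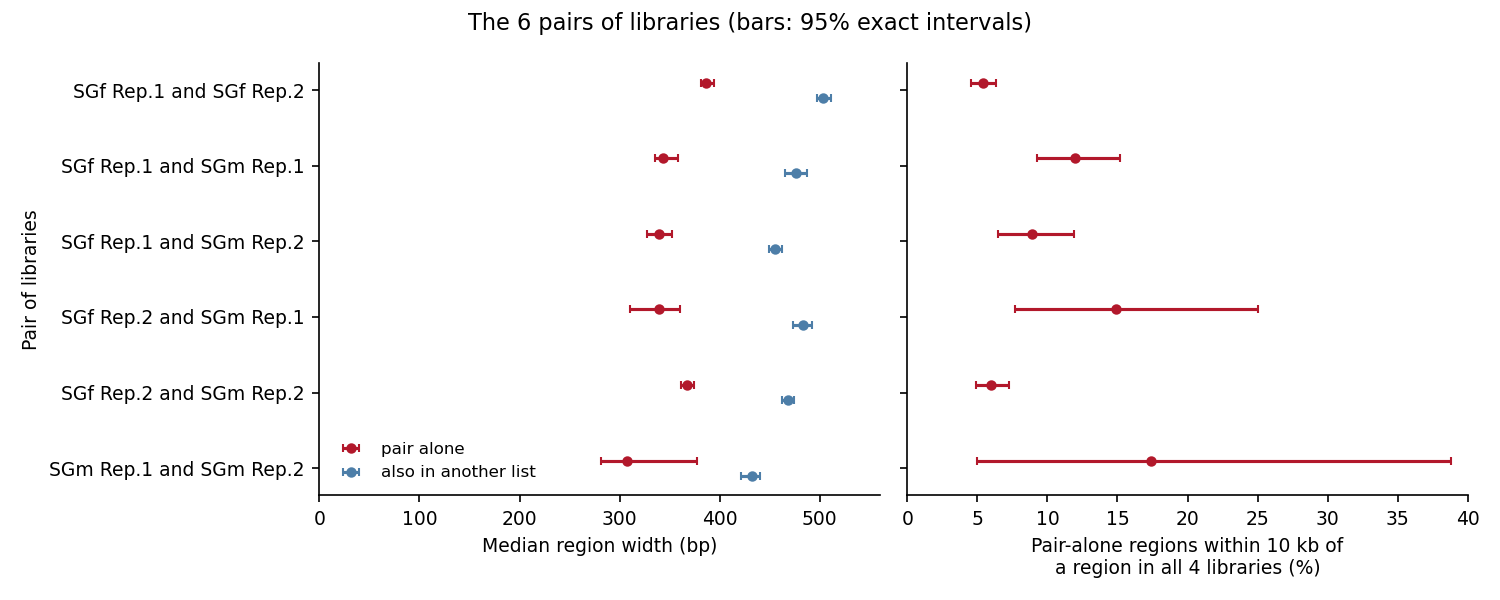
Median region width in bp (left) and percent of pair-alone regions within 10 kb of a region in all 4 libraries (right) for the 6 pairs of libraries (vertical axis), with 95% exact intervals; red is regions the pair alone held and blue is those another list also held. Pair-alone regions are the narrower in 6 of 6 pairs, and the SGf pair has the lowest 10 kb share, 5.39%, with an interval that overlaps that of SGf Rep.2 with SGm Rep.2.

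The 145 SGf-alone regions near such a region differed little in height from the others. Their median folds were 3.45 and 3.48 in the SGf lists, and their median width was 426 bp (399 to 445) against 384 bp for the rest. The closest was chr4:44768845-44769387, with folds of 3.32 and 3.87, which ended 11 bp before a region at chr4:44769399-44769886. That neighbour had folds of 3.91 and 3.64 in SGf Rep.1 and Rep.2, and 2.84 and 4.93 in SGm Rep.1 and Rep.2. At the other end, the SGf-alone region at chr2:61549830-61550123, with folds of 3.77 and 3.93, lay 8010532 bp from any region in all 4 libraries. Of the 5 farthest, 3 were on chromosome 14 and 2 on chromosome 2.

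Some SGf-alone regions had an SGm peak beside them without overlap. The nearest SGm peak was within 100 bp of 36 regions (1.34%), within 1 kb of 318 (11.8%, 10.6 to 13.1) and within 10 kb of 742 (27.6%), and its median distance was 36061 bp. SGm Rep.2 had a peak within 1 kb of 254 regions and SGm Rep.1, with the shorter list, of 108. The 318 regions with an SGm peak within 1 kb had median folds of 3.55 and 3.55, and the 2373 others had 3.55 and 3.52. For the other pairs of libraries, the share of pair-alone regions with a peak of another list within 1 kb was between 15.7% and 26.2%. These shares are not like for like. Each pair was measured against the lists outside it, which are the shorter SGm lists for the SGf pair. For every other pair they include at least 1 of the longer SGf lists.

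The closest case shows how the absence of overlap can rest on a few bases. At chr5:34892318-34892871, with folds of 3.26 and 5.86 in the SGf lists, an SGm Rep.2 peak with a fold of 4.54 ended 2 bp before the region. The SGf summits were 247 to 526 bp from the summit of that SGm peak. At chr10:16922675-16923028, with folds of 5.26 and 5.91, an SGm Rep.1 peak with a fold of 3.95 began after a gap of 3 bp, and the summits were 339 to 352 bp apart.

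SGf-alone regions were found on all 19 autosomes at like shares. As a share of the regions that both SGf libraries held, they ran from 27.2% on chromosome 19 (21.5 to 33.5) to 34.7% on chromosome 7 (30.8 to 38.8), and 19 of 19 intervals held the overall 31.8%. Per megabase, counted to the end of the last listed peak, they were most frequent on chromosome 11, with 239 regions or 1.96 a megabase. They were least frequent on chromosome 1, with 155 or 0.787. Comparison regions were likewise most frequent on chromosome 11, at 4.02 a megabase. On chromosome 1 they had 1.70, near their lowest of 1.67 on chromosome 14. SGf-alone regions were narrower than comparison regions by median on 19 of 19 chromosomes. The share within 10 kb of a region in all 4 libraries was lower on 14 chromosomes and higher on 5.

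Most SGf-alone regions were the only one in their 100 kb window, and a smaller number lay close to another. The nearest other SGf-alone region had a median distance of 163210 bp, and it was within 10 kb for 233 regions (8.66%). The same spacing is not given for comparison regions, so no clustering is read from these values. Of the windows with any, 2037 held 1 region, 255 held 2, 39 held 3, 3 held 4 and 3 held 5. The first of the windows with 5 spans chr4:88400001-88500000, where the SGf-alone regions lay between 88406499 and 88449314 and no comparison region was found. Their folds ran from 2.12 to 3.33 in SGf Rep.1 and from 2.87 to 3.83 in SGf Rep.2. The second, at chr11:98600001-98700000, held 1 comparison region besides, with folds in the SGf-alone regions from 3.04 to 5.10 and from 2.09 to 3.78. The last, at chr8:123000001-123100000, held 2 comparison regions, with folds from 2.97 to 5.39 and from 2.26 to 4.91.

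Which regions counted as SGf-alone depended on the threshold of the lists. At a −log10 q of at least 5 in each list there were 1719 such regions. Of these, 877 were among the 2691, and the other 842 (49.0%) overlapped a deposited SGm peak of lower significance. With each list cut to the length of the shortest by p-value, 327 regions were SGf-alone. Of those, 140 were among the 2691 and 187 (57.2%) overlapped a deposited SGm peak. Thus 32.6% and 5.20% of the 2691 regions met these stricter settings.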

How the data were processed

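The 4 peak lists were deposited by the authors in narrowPeak form, 1 per library. The authors' file gives for each peak a fold enrichment (a ratio), a −log10 p-value, a −log10 q-value, a score that follows the q-value, and a summit. The submitters' processing notes name BWA, HOMER 4.11 and mm9. Which program called the peaks, at which threshold and against which control, is not given in the sources used here. Deposited fold enrichments and −log10 values served for ranks, bins and filters within a list. Between lists, heights of a region were set side by side and correlated as a description, with no test of their difference.

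Peaks on chromosomes 1 to 19 were merged as described at the start of the report. For each list and region the peak with the highest −log10 p gave the height and summit. Distances are edge to edge on 1 chromosome. Medians have distribution-free exact 95% intervals and shares have exact Clopper-Pearson intervals, both for counting error only. With 2 libraries a group, an exact permutation test cannot go below p = 0.333, and no test was run. Regions named by position are the 20 with the best worse p-value rank, the 5 widest, the 5 narrowest otherwise alike regions of 1000 bp or more, the 5 nearest to and the 5 farthest from a region in all 4 libraries, the 5 with the nearest SGm peak and the 3 windows with the most regions. From each set the text prints a few. The regions and the settings were chosen with earlier results of these data known. Other settings were a minimum −log10 q of 5, equal list lengths, other overlap and gap rules, no SGm peak within 1000 bp, groups by the Sex tag, leaving out each library, strength bins and other distance limits. Comparison regions whose SGf peaks overlap without SGm peaks, widths of SGf peaks alone within strength bins, and bins by each list's own p-value were added after seeing the data. Positions are those of mm9. The gene and promoter tables at hand are of GRCm38.p6 and were not used, so no gene is named. Merging, distances between regions and the intervals of medians were tested on simulated data. The intervals of shares and the summit distances were not. The software was numpy 2.4.6, pandas 2.3.3, matplotlib 3.10.9 and scipy 1.17.1 under Python 3.11.15.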

Additional observations from a re-analysis of the deposited data

How the results depend on the processing

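SGf-alone regions numbered 1719 at a −log10 q of at least 5 and 327 with lists of equal length. Leaving out 1 library gave 3191 to 8417, with 8391 without SGf Rep.1, 8417 without SGf Rep.2, 3191 without SGm Rep.1 and 6312 without SGm Rep.2. Without an SGf library, a peak in the remaining SGf list and in no SGm list was enough. The values for those settings, here and below, are therefore not of regions held by an SGf pair. Groups from the Sex tag gave 492 regions for Female and 1602 for Male. Their median width was 447 bp at that q, 463 bp with equal lists, 395 bp with gaps of up to 100 bp joined, 353 bp with 50% overlap and 375 bp with summits within 200 bp. It was 261 bp without SGf Rep.1 and 250 bp without SGf Rep.2, and 400 bp without SGm Rep.1 and 434 bp without SGm Rep.2. A single SGf Rep.1 or Rep.2 peak had 283 or 292 bp, and strength bins 1, 2, 3 and 5 had 413, 406, 398 and 373 bp, also on SGf peaks alone. Comparison regions were wider by 40 to 216 bp under every one of the 38 alternatives (142.5 bp as reported). The median summit distance was 50 bp at that q, 41 bp with equal lists, 49 bp with 50% overlap and 52 bp with summits within 200 bp. It was 60 bp without SGm Rep.1 and 55 bp without SGm Rep.2, could not be had without an SGf library, and was 41, 47, 51 and 70 bp in the same bins. SGf-alone minus comparison, it was 7 bp as reported and turned to −3.5, −10, −6 and −5 bp in bins 2 to 5. The share within 50 bp, comparison minus SGf-alone, turned from 3.76 to −2.05, −6.19, −0.669 and −1.30 percentage points there. The cause was not tested. The share within 10 kb of a 4-library region was 2.44% at that q, 2.45% with equal lists and 3.67% with no SGm peak within 1000 bp. It was 5.68% to 16.1% with 1 library left out (5.68% without SGf Rep.1, 7.87% without SGf Rep.2, 16.1% without SGm Rep.1, 8.52% without SGm Rep.2), and 3.40%, 4.38% and 6.43% in the first 3 bins. The median distance to such a region was 76813 to 271973 bp with 1 library left out (76813 bp without SGm Rep.1), 867584 bp at that q and 878258 bp with equal lists. With limits of 1 kb and 100 kb in place of 10 kb, the share of SGf-alone regions was 1.49% and 28.1%. That share stayed below the share of comparison regions under all 21 alternatives, by 1.22 to 6.33 points. No paired analysis was run, because it is not stated whether libraries of 1 replicate number belong together. The lists also hold no counts. The unknown depth of each list limits what absence from an SGm list can show.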
